A study of Mus musculus with 9 samples.

Results

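The 10 genes described here encode enzymes that modify or crosslink collagen chains and the chaperone that escorts procollagen. They are the lysyl hydroxylases Plod1, Plod2 and Plod3, the prolyl 4-hydroxylase alpha subunits P4ha1 and P4ha2, the collagen galactosyltransferases Colgalt1 and Colgalt2, the chaperone Serpinh1, and the lysyl oxidases Lox and Loxl2. The genes were listed by function, and the list was chosen from earlier results of these same counts over the 3 genotypes, so the values and calls of these 10 genes are given as a description, no p is printed for them and nothing is supported with them. They are 10 of the 55450 genes in the count table, and all 10 were among the 19357 genes with enough counts to be tested.

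The counts came from RNA sequencing of live EYFP+ cells sorted by FACS from the mammary glands of adult nulliparous mice. Every mouse, controls included, carried the K8CreERT2 driver (a tamoxifen-inducible Cre under the Krt8 promoter, which acts in luminal cells) and the lsl-EYFP reporter that Cre switches on. All mice received 2 mg of tamoxifen on 5 days, and the glands were taken 7 days after the last dose. Control mice had the genotype lsl-EYFP;K8CreERT2, LATS1/2-KO mice carried LATS1/2f/f in addition, and LATS1/2-Sox9-KO mice carried both LATS1/2f/f and Sox9f/f. Each genotype gave 3 libraries. Total counts ranged from 44167762 to 47003587 in the control libraries, from 50508666 to 61745346 in LATS1/2-KO and from 55503365 to 61967651 in LATS1/2-Sox9-KO. The labels number the libraries without saying that each came from a separate mouse, so the errors given here measure the spread between these libraries, which may be technical.

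Collagen chains are modified in the endoplasmic reticulum before they fold. Prolyl 4-hydroxylases make the hydroxyproline that keeps the triple helix stable at body temperature, lysyl hydroxylases make hydroxylysine, and galactosyltransferases add sugar to hydroxylysine. The hydroxylases need oxygen, iron, 2-oxoglutarate and ascorbate. Serpinh1 binds the folded procollagen helix on its way to the Golgi, and after secretion the lysyl oxidases convert lysine and hydroxylysine into aldehydes from which covalent crosslinks form. In the mammary gland these enzymes are best known from the stromal fibroblasts that lay down fibrillar collagen, while luminal cells line the lumen and are mostly separated from the basement membrane by the basal (myoepithelial) layer.

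The targeted genes were read first as a check of the labels. Lats1 had 5672, 5928 and 5940 normalised counts in the control libraries, 2090, 1923 and 2336 in those labelled LATS1/2-KO, and 2058, 1844 and 1709 in those labelled LATS1/2-Sox9-KO, so it was lower in every deleted library. Normalised counts are reads per gene brought to a common library size with the TMM factors of edgeR. Lats2 went against the labels, with a mean of 1041 ± 177 (SD, n = 3) in control, 1471 ± 236 in LATS1/2-KO and 1592 ± 359 in LATS1/2-Sox9-KO. Sox9 averaged 21598 ± 1683 in control, 9715 ± 2620 in LATS1/2-KO and 7343 ± 1281 in LATS1/2-Sox9-KO. The libraries of the last 2 groups overlapped for Sox9. Whole-gene counts do not show whether the floxed exons were lost, and those exons were not examined, so the groups are named throughout as the libraries are labelled. The luminal keratins Krt8 and Krt18 were abundant in all 9 libraries and higher in every deleted library than in any control. Krt8 had 168810 to 216010 normalised counts in control, 265240 to 293130 in LATS1/2-KO and 431240 to 461280 in LATS1/2-Sox9-KO. Krt18 had 239710 to 257940, 384350 to 428710 and 638920 to 789500 in these groups. Some other luminal markers were lower in every deleted library than in any control. Epcam, an epithelial adhesion protein, had 107650 to 125310 normalised counts in control and 44462 to 73109 in the deleted libraries, and the hormone receptors Esr1, Pgr and Prlr were lower in the same way, with Esr1 at 8019 to 12660 against 587 to 1315.

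Promoter windows of 4 genes are shown because each of these genes rose or fell in at least 1 comparison with control, as defined below, and each window holds a match to the core letters of the hypoxia response element, the motif bound by HIF factors. Windows come from RefSeq on GRCm38.p6 and run from 250 bases before the annotated start to 50 after it, on the strand of the gene. For P4ha2 this start is not the first base of the gene span given below (chr11:54100095-54131665). Its window, with the matches in it, lies inside that span. Capitals mark ACGTG or, on the other strand, CACGT, and in Plod3 also ATTGT, a SOX core described after the windows. The window of P4ha1 lies at chr10:59323046-59323345 on the plus strand, that of P4ha2 at chr11:54100674-54100973 on the plus strand, that of Serpinh1 at chr7:99353190-99353489 on the minus strand, and that of Plod3 at chr5:136986769-136987068 on the plus strand.
P4ha1: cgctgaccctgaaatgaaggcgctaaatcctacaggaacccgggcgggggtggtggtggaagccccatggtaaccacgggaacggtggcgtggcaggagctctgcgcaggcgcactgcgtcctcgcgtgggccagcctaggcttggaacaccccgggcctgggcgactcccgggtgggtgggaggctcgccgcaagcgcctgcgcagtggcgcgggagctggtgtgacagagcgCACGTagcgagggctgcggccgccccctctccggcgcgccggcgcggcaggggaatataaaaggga
P4ha2: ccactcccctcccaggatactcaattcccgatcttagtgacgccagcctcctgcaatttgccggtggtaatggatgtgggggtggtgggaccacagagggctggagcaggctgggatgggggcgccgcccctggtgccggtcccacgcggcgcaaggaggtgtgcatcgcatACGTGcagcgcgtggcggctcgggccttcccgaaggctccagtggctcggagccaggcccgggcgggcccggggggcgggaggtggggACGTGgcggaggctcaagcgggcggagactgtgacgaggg
Serpinh1: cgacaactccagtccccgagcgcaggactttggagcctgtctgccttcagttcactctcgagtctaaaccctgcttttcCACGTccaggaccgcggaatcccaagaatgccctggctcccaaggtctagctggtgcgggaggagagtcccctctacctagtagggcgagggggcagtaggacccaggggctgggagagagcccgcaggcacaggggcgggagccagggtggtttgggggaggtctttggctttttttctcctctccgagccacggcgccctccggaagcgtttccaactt
Plod3: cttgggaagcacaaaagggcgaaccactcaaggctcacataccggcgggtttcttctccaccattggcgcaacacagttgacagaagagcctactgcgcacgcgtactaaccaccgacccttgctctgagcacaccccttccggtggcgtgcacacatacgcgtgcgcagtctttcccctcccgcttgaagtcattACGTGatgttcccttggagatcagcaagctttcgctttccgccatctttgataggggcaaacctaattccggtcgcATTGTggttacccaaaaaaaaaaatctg
The match in P4ha1 begins 16 bases before the start, those in P4ha2 at 78 bases before and 10 after it, that in Serpinh1 at 171 bases before it, and that in Plod3 at 54 bases before it. Of all 32851 promoter windows in the table, 19.6% hold these letters, and 4 of the 7 windows found for the 10 genes do. The letters hold a CpG, and the 7 windows are unlike the rest in this, with 16 to 32 CpG each beside a median of 7 over all windows, so these shares are not comparable. The share of G and C was 51.0% to 70.3% in the 7 windows and 52.7% at the median of all. The windows were of Colgalt1 (2 windows), P4ha1, P4ha2, Plod1, Plod3 and Serpinh1, which makes 6 genes of the 10. GGAATG, or CATTCC on the other strand, which is the core of the TEAD motif, was in 0 of the 7 windows and in 14.7% of all windows. ACAAT (or ATTGT), a SOX core, was in the Plod3 window alone among the 7 and in 31.0% of all windows. TGANTCA, the AP-1 motif, was in 0 of the 7 and in 7.81% of all, and GAANNTTC, part of the heat shock element, was in the Plod1 window and a Colgalt1 window and in 7.86% of all. A match of letters is not evidence of binding, and a missing match says only that these letters are not in the window.

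Across the 10 genes, deletion-labelled libraries did not move one way. A gene is said here to have risen or fallen only if its absolute log2 fold change was above 1 and its adjusted p was at most 0.05 in edgeR's quasi-likelihood test on all 9 libraries. In LATS1/2-KO against control, 5 of the 10 genes rose (Plod2, P4ha2, Serpinh1, Lox and Loxl2) and 2 fell (Plod1 and Plod3), where 17.1% of all tested genes rose and 17.5% fell. In LATS1/2-Sox9-KO against control Plod2, P4ha2, Serpinh1, Lox and Loxl2 rose again and 3 fell (Plod1, P4ha1 and Colgalt2), against 17.8% and 19.6% of all tested genes. Between LATS1/2-Sox9-KO and LATS1/2-KO, Lox rose and Colgalt2 fell, where 1.55% of tested genes rose and 2.16% fell. Since the genes were picked with these results in view, nothing is read from their counts beside those shares. The median log2 fold change of the 10 genes was 0.97, 0.95 and -0.40 in the 3 comparisons, and that of all tested genes was 0.04, 0.01 and -0.02. Both comparisons with control use the same 3 control libraries.

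**Figure D1:**
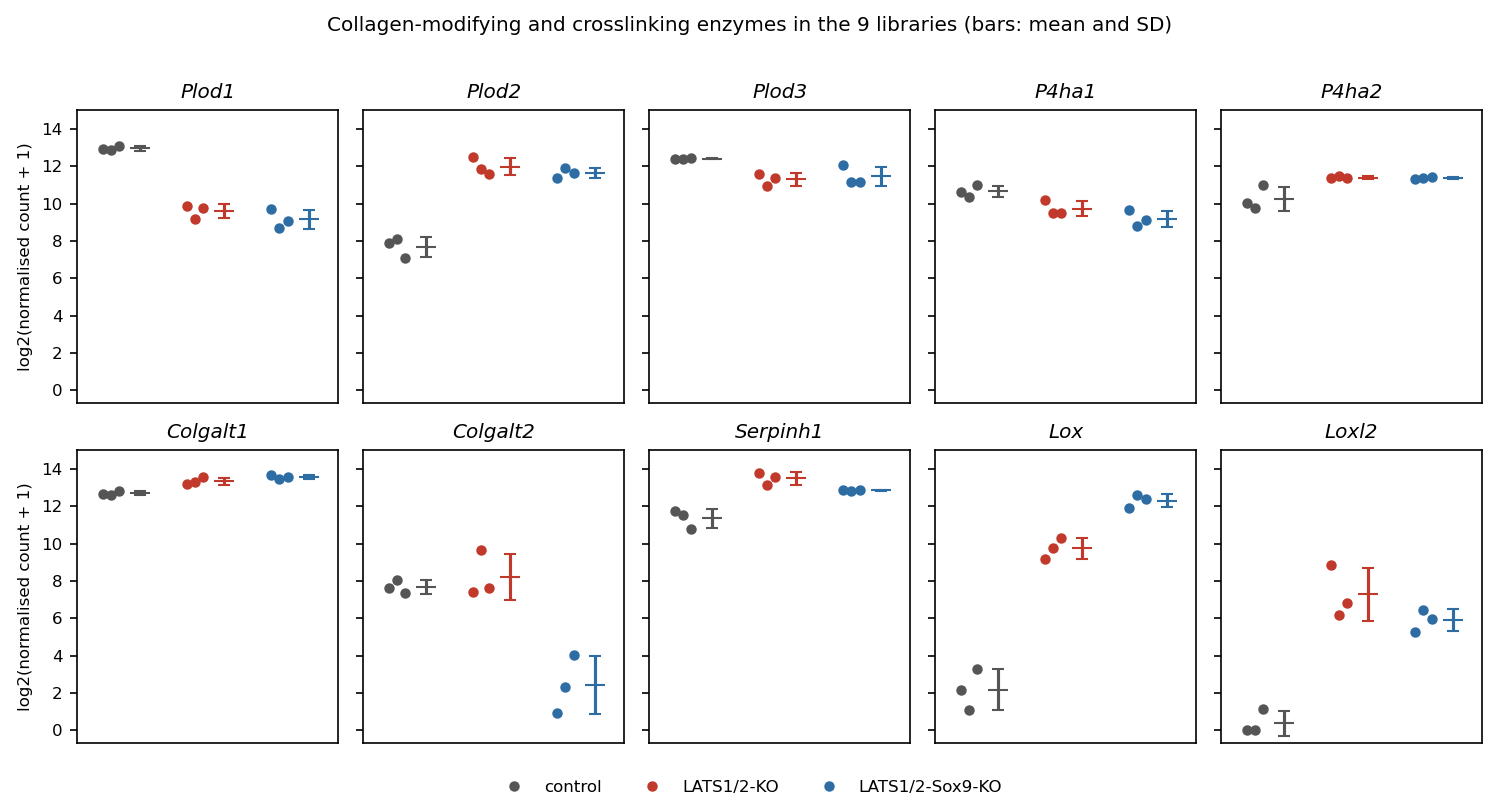
Log2(normalised count + 1) of the 10 genes, 1 panel per gene, with 1 point per library and the mean ± SD of each group of 3 beside its points. Plod1 falls and Plod2 rises in every library labelled with the deletion, Lox climbs from control over LATS1/2-KO to LATS1/2-Sox9-KO, and Colgalt2 is lowest in LATS1/2-Sox9-KO, below every library of the other groups.

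The lysyl hydroxylases showed the opposite moves of Plod1 and Plod2. Plod2 (chr9:92542223-92608428 on the plus strand of GRCm38) encodes the enzyme that hydroxylates lysines of the collagen telopeptides and so sets the kind of crosslink that forms. Its normalised counts were 232, 272 and 134 in control, 5800, 3705 and 3098 in LATS1/2-KO, and 2673, 3784 and 3222 in LATS1/2-Sox9-KO. No control library came near any of the others, while the 2 deleted groups overlapped. The log2 fold change was 4.30 (standard error 0.32) in LATS1/2-KO against control and 3.92 (0.32) in LATS1/2-Sox9-KO against control, a level 19.7-fold and 15.1-fold above control. The gene model Gm38391 overlaps Plod2 exons on the opposite strand. The study's methods mention counting on the same strand, while the kit named in the labels does not mark strand, so reads from the bases shared with opposite-strand genes are uncertain for Plod2 and for the overlaps given below.

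Plod1 (chr4:147909753-147936767, minus strand) encodes the enzyme for lysines in the helical part of the chain. It had 7729, 7481 and 8813 normalised counts in control, 952, 568 and 855 in LATS1/2-KO and 826, 417 and 530 in LATS1/2-Sox9-KO. All 6 deleted libraries lay far below the 3 control libraries. The log2 fold change was -3.34 (0.27) for LATS1/2-KO and -3.76 (0.28) for LATS1/2-Sox9-KO against control, and -0.42 (0.25) between the 2 deleted groups.

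Plod3 (chr5:136987019-136996648, plus strand) encodes a lysyl hydroxylase that can also glycosylate hydroxylysine. It had 5331, 5449 and 5583 normalised counts in control, 3041, 1941 and 2677 in LATS1/2-KO, and 4277, 2286 and 2317 in LATS1/2-Sox9-KO. The log2 fold change of -1.10 (0.25) in LATS1/2-KO passed the threshold and that of -0.88 (0.25) in LATS1/2-Sox9-KO did not. Without LATS1/2-KO replicate 2 the first became -0.94 and lost its call, and without LATS1/2-Sox9-KO replicate 1, the highest library of its group, the second became -1.22 and gained one. Exons of Plod3 overlap those of Znhit1 on the opposite strand.

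Per length of exon, the 3 genes changed places within the family. Plod2 made up 1.64% ± 0.60 (SD, n = 3) of the normalised counts per kb of the 3 lysyl hydroxylases in control, 52.9% ± 7.31 in LATS1/2-KO and 45.8% ± 12.4 in LATS1/2-Sox9-KO. The share of Plod1 was 48.6% ± 2.03, 8.07% ± 1.5 and 6.42% ± 1.49, and that of Plod3 was 49.7% ± 1.43, 39.1% ± 5.83 and 47.8% ± 11.1. The summed level of the family was 2430 ± 115 normalised counts per kb in control, 1461 ± 374 in LATS1/2-KO and 1341 ± 198 in LATS1/2-Sox9-KO, so the total was lower in both deleted groups even though Plod2 was higher.

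**Figure D2:**
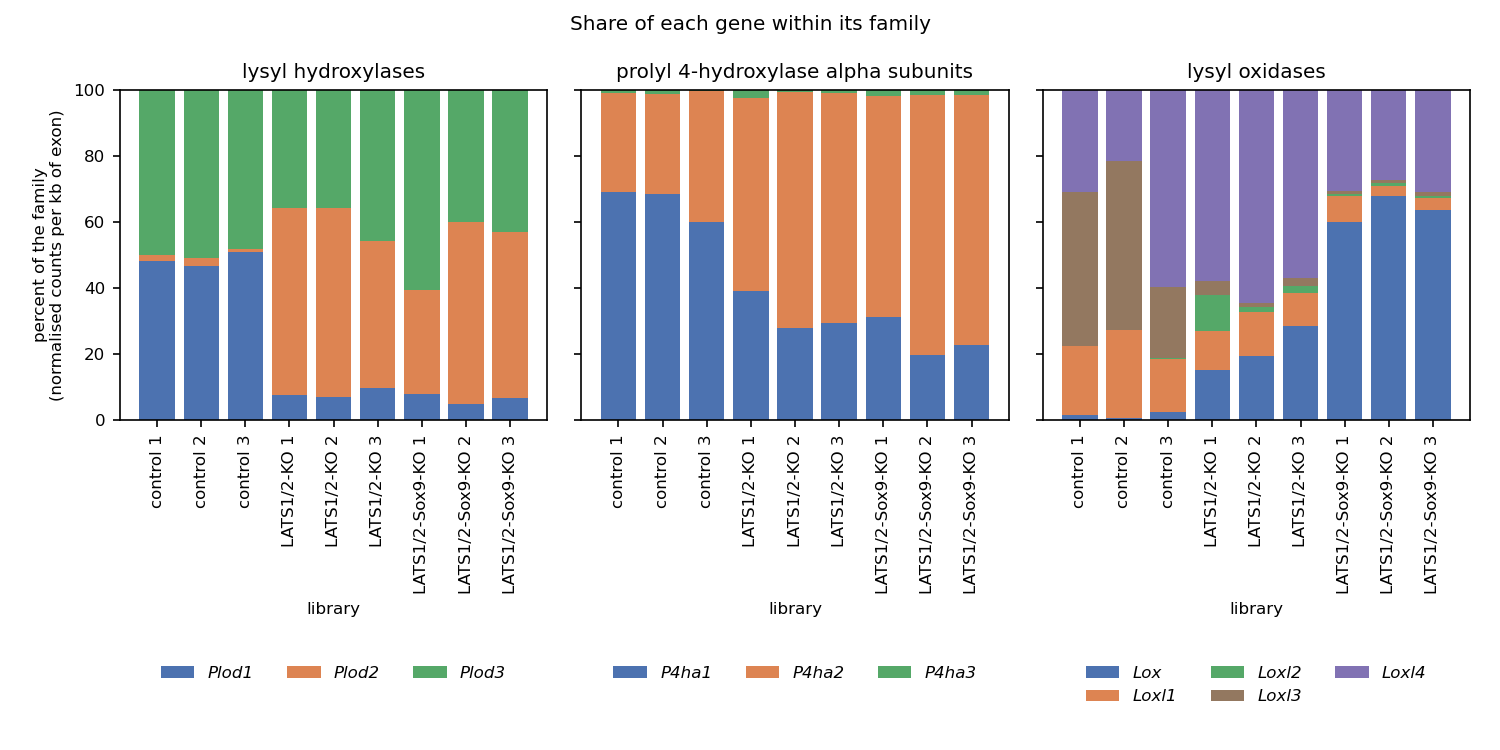
Share of each gene (percent of the summed normalised counts per kb of exon) in the lysyl hydroxylases, the prolyl 4-hydroxylase alpha subunits and the lysyl oxidases, 1 stacked bar per library. In the deleted libraries Plod2 takes the place of Plod1, P4ha2 the place of P4ha1, and the share of Loxl3 shrinks while that of Lox grows, with Lox above Loxl4 in the 3 LATS1/2-Sox9-KO libraries alone.

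The prolyl 4-hydroxylase alpha subunits, which carry the catalytic site, also shifted from one gene to another. P4ha1 (chr10:59323296-59373304, plus strand) had 1566, 1311 and 2025 normalised counts in control, 1157, 733 and 730 in LATS1/2-KO, and 799, 442 and 553 in LATS1/2-Sox9-KO. All deleted libraries were below the lowest control. Its log2 fold change was -1.45 (0.27) in LATS1/2-Sox9-KO, which passed the threshold, and -0.90 (0.27) in LATS1/2-KO, which did not. The latter became -1.04 without control replicate 2 and -1.15 without LATS1/2-KO replicate 1, and was then called.

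P4ha2 (chr11:54100095-54131665, plus strand) had 1029, 881 and 2022 normalised counts in control, 2627, 2869 and 2611 in LATS1/2-KO, and 2586, 2674 and 2773 in LATS1/2-Sox9-KO. The 6 deleted libraries differed little among themselves, and control replicate 3 stood well above the other 2 controls. The log2 fold changes of 1.04 (0.26) and 1.03 (0.26) against control lay just inside the threshold. Without control replicate 1 they became 0.90 and 0.89, and without control replicate 2 they became 0.82 and 0.81, all outside it. The value for LATS1/2-KO was also outside it, at 0.99, without LATS1/2-KO replicate 2.

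P4ha2 held 33.3% ± 5.43 of the normalised counts per kb of the alpha subunits in control, 66.6% ± 7.09 in LATS1/2-KO and 73.7% ± 6.09 in LATS1/2-Sox9-KO. P4ha1 held 65.9% ± 5.07, 32.1% ± 6.10 and 24.7% ± 6.02, and P4ha3, the remaining alpha subunit, stayed at or below 2.40% in every library. The family total was 612 ± 185 normalised counts per kb in control, 654 ± 59.9 in LATS1/2-KO and 584 ± 37.3 in LATS1/2-Sox9-KO, values within the spread of the control libraries. P4hb, the beta subunit that pairs with each of these alpha subunits, had 39291 ± 1914 normalised counts in control, 34968 ± 1795 in LATS1/2-KO and 35297 ± 1640 in LATS1/2-Sox9-KO, with log2 fold changes of -0.17 (0.09) and -0.15 (0.09) against control (adjusted p = 0.15 and 0.179, edgeR).

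Of the galactosyltransferases, Colgalt1 (chr8:71610998-71624911, plus strand), the widely expressed form, was the more abundant in all 9 libraries. It had 6561, 6288 and 7225 normalised counts in control, 9393, 9960 and 12104 in LATS1/2-KO, and 13199, 11455 and 12204 in LATS1/2-Sox9-KO. No control library overlapped the deleted ones, but the log2 fold changes of 0.65 (0.12) and 0.88 (0.12) stayed under the 2-fold threshold. Its exons overlap those of Unc13a on the opposite strand.

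Colgalt2 (chr1:152399830-152510695, plus strand) had the largest difference of the 10 genes between the 2 deleted groups. It had 198, 266 and 161 normalised counts in control, 166, 801 and 200 in LATS1/2-KO, and 0.928, 3.99 and 15.5 in LATS1/2-Sox9-KO. The LATS1/2-Sox9-KO values came from 1, 4 and 17 reads. Every LATS1/2-Sox9-KO library was therefore below every other library, and LATS1/2-KO replicate 2 stood above the rest of its group. The log2 fold change was -4.90 (0.86) in LATS1/2-Sox9-KO against control and -5.80 (0.88) against LATS1/2-KO. Without LATS1/2-Sox9-KO replicate 3, the highest library of its group, they became -6.35 and -7.25. Against control, LATS1/2-KO gave 0.90 (0.68), which was not called, and -0.20 once LATS1/2-KO replicate 2 was left out. Without that replicate the difference between the deleted groups was -4.68.

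Serpinh1 (chr7:99345376-99353239, minus strand) had 3404, 3011 and 1745 normalised counts in control, 14342, 9077 and 11959 in LATS1/2-KO, and 7473, 7268 and 7430 in LATS1/2-Sox9-KO. The 3 groups did not overlap, with LATS1/2-KO highest. The log2 fold change was 2.12 (0.24) in LATS1/2-KO and 1.44 (0.24) in LATS1/2-Sox9-KO against control, a level 4.33-fold and 2.72-fold above control. Between the deleted groups it was -0.67 (0.23), which did not pass the threshold.

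The lysyl oxidases among the 10 genes, Lox and Loxl2, were nearly silent in control. Lox had 3.48, 1.13 and 8.71 normalised counts in the control libraries, which came from 11 reads in all, 584, 873 and 1243 in LATS1/2-KO, and 3884, 6250 and 5287 in LATS1/2-Sox9-KO. The groups did not overlap, and LATS1/2-Sox9-KO was highest. The log2 fold change was 7.66 (0.49) in LATS1/2-KO and 10.17 (0.51) in LATS1/2-Sox9-KO against control, and 2.51 (0.32) between them. Without control replicate 3, which holds 7 of the 11 control reads, the first 2 became 8.53 and 11.06. Pooled over the libraries and scaled for depth, Lox was 210-fold higher in LATS1/2-KO (95% interval 117 to 422) and 1185-fold higher in LATS1/2-Sox9-KO (662 to 2374). These exact intervals cover counting error alone.

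Loxl2 (chr14:69609068-69695834, plus strand), a lysyl oxidase that also acts on type IV collagen, had 1 read in the 3 control libraries together. Its normalised counts were 464, 71.2 and 110 in LATS1/2-KO and 38.1, 87.7 and 61.9 in LATS1/2-Sox9-KO. The pooled ratio to control was 520 (95% interval 93.0 to 20561) and 158 (28.0 to 6267), wide because of the single control read. Of the 668 reads in LATS1/2-KO, 463 came from replicate 1, without which the fitted log2 fold change against control was 7.46 instead of 8.70. Between the deleted groups the log2 fold change was -1.78 (0.68), which was not called, and -0.54 without LATS1/2-KO replicate 1. An antisense gene overlaps exons of Lox and another those of Loxl2, on the opposite strand.

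**Figure D3:**
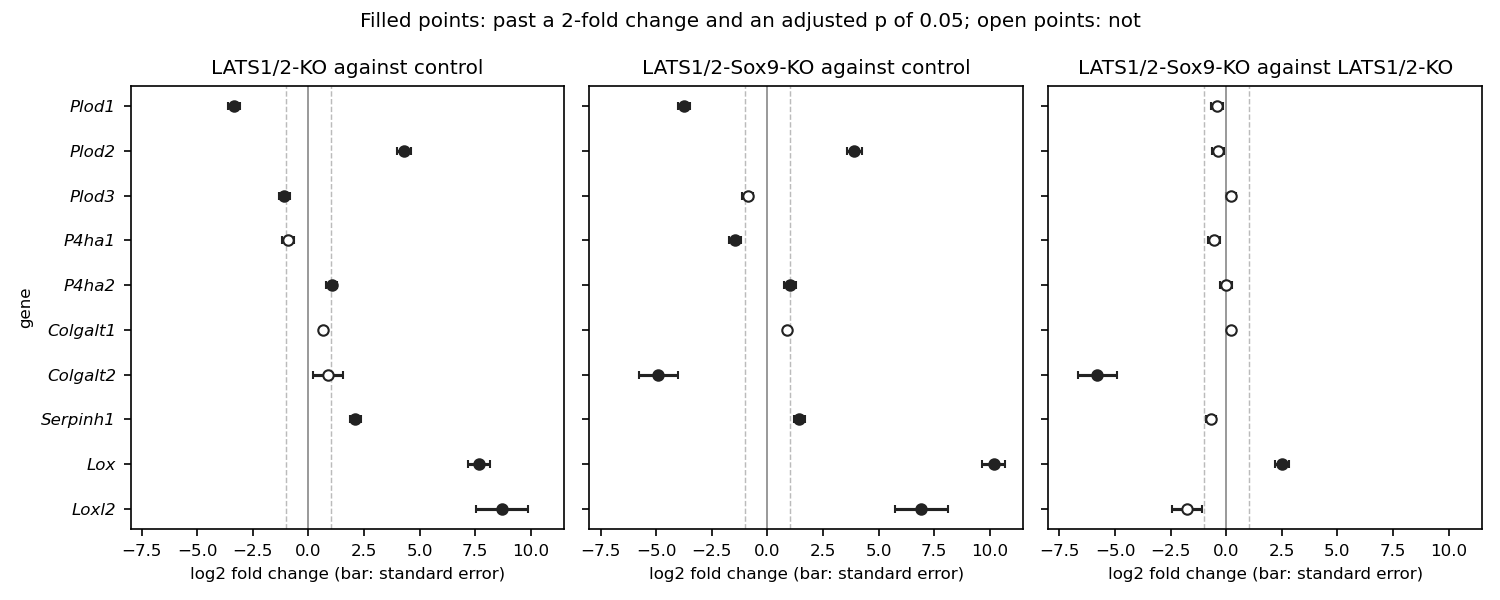
Log2 fold change of the 10 genes in the 3 comparisons, with the standard error as a bar, filled where the change passed 2-fold and an adjusted p of 0.05. Lox and Colgalt2 alone are filled between LATS1/2-Sox9-KO and LATS1/2-KO, at 2.51 and -5.80, and the fitted values of Loxl2 against control rest on 1 control read.

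Among all 5 lysyl oxidases, taken per kb of exon, Lox made up 1.5% ± 0.97 in control, 21.0% ± 6.83 in LATS1/2-KO and 63.8% ± 4.0 in LATS1/2-Sox9-KO. Loxl4 was the largest member in LATS1/2-KO with 59.8% ± 4.17, and Loxl2 stayed a minor one, at most 10.6% in any library. The family total was 56.2 ± 16.0 normalised counts per kb in control, 887 ± 70.7 in LATS1/2-KO and 1674 ± 290 in LATS1/2-Sox9-KO. Loxl1, which acts on elastic fibres, rose from 37.7 ± 4.56 normalised counts in control to 343 ± 62.3 in LATS1/2-KO (log2 fold change 3.18, standard error 0.31, edgeR adjusted p = 2.35e-05). Loxl4 rose from 97.1 ± 79.2 to 2238 ± 298 (4.53, 0.47, edgeR adjusted p = 3.38e-05). Loxl3 had 95.2 ± 19.2 in control, 108 ± 51.9 in LATS1/2-KO and 74.5 ± 19.5 in LATS1/2-Sox9-KO, and was not called in any comparison.

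The order of the 10 genes by level, in normalised counts per kb of exon, differed between groups. In control Colgalt1 led with 1547 ± 111, followed by Plod3 (1207 ± 28.0), Plod1 (1184 ± 105) and Serpinh1 (1113 ± 355), and the libraries of these last 3 overlapped from each gene to the next. P4ha1 (397 ± 88.0) and P4ha2 (210 ± 99.5) came next and overlapped each other, then Colgalt2 (49.1 ± 12.6) and Plod2 (39.5 ± 13.1), which also overlapped, and Lox (0.93 ± 0.81) and Loxl2 (0.08 ± 0.13) were last. In LATS1/2-KO the order was led by Serpinh1 (4827 ± 1079), Colgalt1 (2424 ± 330) and Plod2 (779 ± 263), of which Plod2 overlapped the next gene, Plod3 (565 ± 124). From P4ha1 (212 ± 59.8) over Lox (188 ± 69.2), Plod1 (117 ± 29.5) and Colgalt2 (91.6 ± 84.1) to Loxl2 (39.8 ± 40.1), each gene overlapped the next there. In LATS1/2-Sox9-KO Serpinh1 (3025 ± 44.2) and Colgalt1 (2840 ± 202) overlapped at the top, Lox was the third at 1076 ± 249 and overlapped Plod3 (655 ± 252), and Colgalt2 was last at 1.6 ± 1.8.

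Partners of the hydroxylases were read next. P3h1, Crtap and Ppib form the complex for prolyl 3-hydroxylation, which also assists folding. Crtap rose from 455 ± 97.4 normalised counts in control to 1128 ± 349 in LATS1/2-KO (log2 fold change 1.31, standard error 0.25, edgeR adjusted p = 0.00131) and to 1157 ± 106 in LATS1/2-Sox9-KO (1.34, 0.25, edgeR adjusted p = 0.000992). P3h1 (-0.18 and -0.75) and Ppib (0.46 and 0.36) were not called against control. P3h3 and P3h4, which form a complex with Plod1, both fell. P3h3 had 603 ± 148 normalised counts in control, 142 ± 20.2 in LATS1/2-KO and 62.4 ± 7.60 in LATS1/2-Sox9-KO, with log2 fold changes of -2.09 (0.24) and -3.27 (0.26) against control and -1.18 (0.25) between the deleted groups (edgeR adjusted p = 7.11e-05, 5.39e-06 and 0.0241). P3h4 had 3322 ± 192, 760 ± 205 and 387 ± 45.2, with -2.13 (0.19) and -3.10 (0.20) against control (edgeR adjusted p = 1.62e-05 and 2.01e-06). Fkbp10, an isomerase of the endoplasmic reticulum that works with Plod2 and Serpinh1, fell while Plod2 rose. It had 1528, 1311 and 895 normalised counts in control, 367, 403 and 928 in LATS1/2-KO, and 210, 216 and 200 in LATS1/2-Sox9-KO, with log2 fold changes of -1.14 (0.34) and -2.57 (0.36) against control (edgeR adjusted p = 0.017 and 0.000181). Its LATS1/2-KO replicate 3 overlapped the control range.

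Over the 60 other genes of collagen biosynthesis, 11 rose and 15 fell in LATS1/2-KO against control (17.1% and 17.5% of all tested genes did), and 12 rose and 15 fell in LATS1/2-Sox9-KO against control (17.8% and 19.6% of all). These shares of all tested genes are the background for every list that follows in the comparisons with control. Their median log2 fold changes were -0.15 and -0.08, beside 0.04 and 0.01 for all tested genes. Of the 8 genes of prolyl hydroxylation, 2 rose (P3h2 and Crtap) and 2 fell (P3h3 and P3h4) in each of these comparisons. P3h2, a prolyl 3-hydroxylase of basement membrane collagen, went from 102 ± 9.48 to 547 ± 94.4 normalised counts in LATS1/2-KO (log2 fold change 2.43, standard error 0.21, edgeR adjusted p = 1.1e-05).

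Of the 17 folding chaperones and isomerases, 1 rose and 4 fell in LATS1/2-KO, and 1 rose and 5 fell in LATS1/2-Sox9-KO. Hyou1, a chaperone of the stress response in the endoplasmic reticulum, fell from 18988 ± 1898 to 4864 ± 1205 normalised counts in LATS1/2-KO (-1.97, 0.23, edgeR adjusted p = 6.72e-05), and Fkbp7 rose by 2.41 (0.34, adjusted p = 0.000219). Of the 13 genes of procollagen export, 1 rose and 2 fell in each of these comparisons. Sec23a, a coat protein of the vesicles that leave the endoplasmic reticulum, rose by 1.45 in LATS1/2-KO (standard error 0.12, edgeR adjusted p = 9.62e-06). The factors Creb3l1 and Creb3l2, which drive transcription of secretory genes, fell, with log2 fold changes of -3.33 and -2.66 (edgeR adjusted p = 0.000385 and 3.87e-06).

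Of the 8 genes of procollagen processing, Adamts14 and Adamts2, which remove the amino-terminal propeptide, rose by 5.19 and 1.93 on the log2 scale in LATS1/2-KO, while the related Adamts3 fell by 1.91 (edgeR adjusted p = 6.55e-05, 0.000214 and 0.000641). Tll2 fell as well, and Pcolce2, an enhancer of propeptide cleavage, rose in LATS1/2-Sox9-KO alone (1.93, adjusted p = 0.0116), although the difference between the deleted groups was not called (1.01, adjusted p = 0.287, edgeR). Bmp1, the main carboxy-terminal propeptidase and an activator of Lox, had 5587 ± 660 normalised counts in control, 8421 ± 2577 in LATS1/2-KO and 6617 ± 2054 in LATS1/2-Sox9-KO and was not called.

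The 9 genes listed as other lysyl oxidases and their partners had the highest median log2 fold change of the 6 pathway lists, 3.18 in LATS1/2-KO and 2.75 in LATS1/2-Sox9-KO, with 5 higher and 2 lower in both. Besides Loxl1 and Loxl4, these were fibronectin Fn1 (6.83 in LATS1/2-KO and 7.68 in LATS1/2-Sox9-KO), periostin Postn (5.49 and 4.17) and fibulin-5 Fbln5 (4.63 and 3.23), which bind or guide lysyl oxidases in the matrix. Fn1 had 36146, 9159 and 12562 normalised counts in LATS1/2-KO, so its value there leans on replicate 1. Efemp2 and Ltbp4, needed for elastic fibre assembly, fell in LATS1/2-KO, at -2.08 and -1.67. Atp7a, the copper pump that loads lysyl oxidases, was not called (-0.48 and -0.62). Of the 5 genes of glycosylation and ascorbate supply 0 rose by edgeR's test (0 at an unadjusted p under 0.05 and 0 by DESeq2), while 3 fell in LATS1/2-KO and 2 in LATS1/2-Sox9-KO. The ascorbate transporter Slc23a1 had 104, 249 and 393 normalised counts in control, at most 0.912 in LATS1/2-KO and at most 9.96 in LATS1/2-Sox9-KO, and its relative Slc23a2 fell, with log2 fold changes of -1.33 and -1.24 (edgeR adjusted p = 7.85e-05 and 0.000102).

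**Figure D4:**
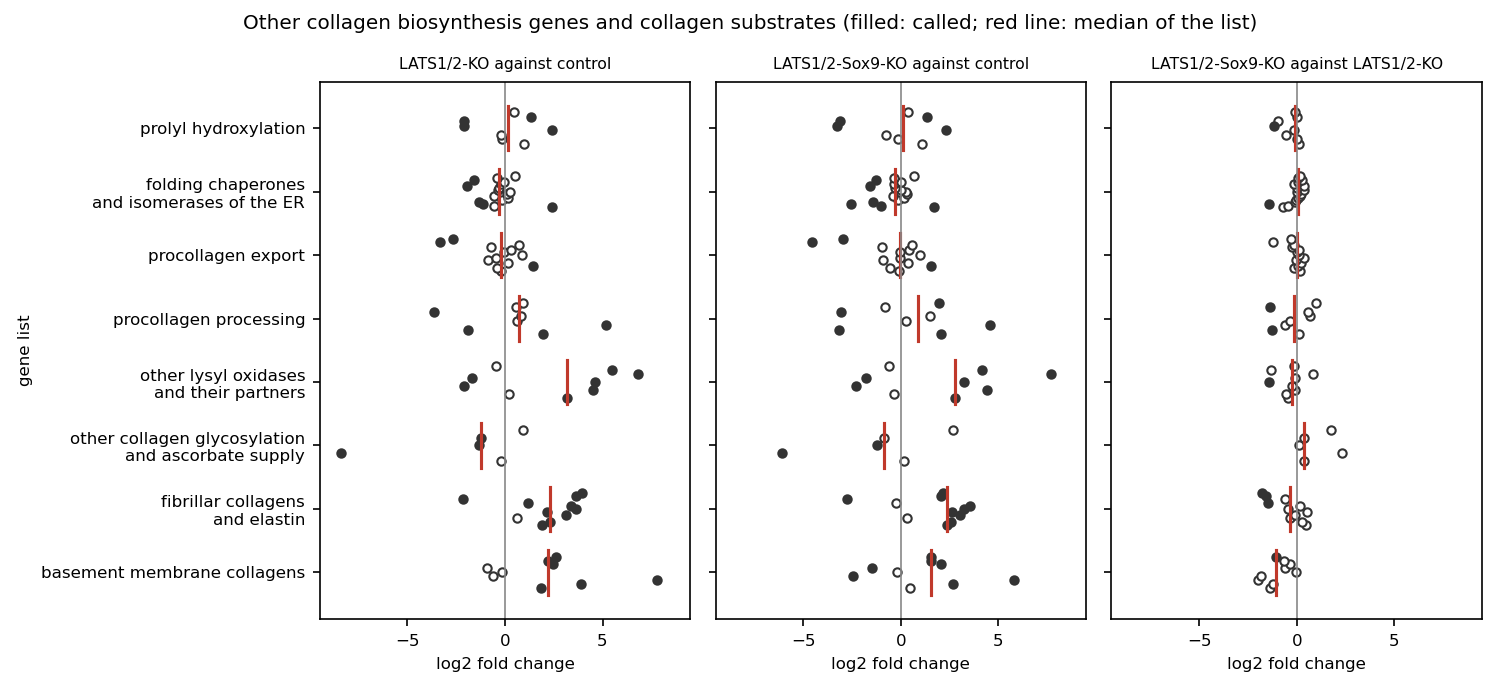
Log2 fold change of each tested gene of the collagen biosynthesis lists and the collagen lists, 1 point per gene, filled where called, with the median of the list as a red line. Against control, the medians of the lysyl oxidase partners and the collagens lie right of 0. The glycosylation and ascorbate list has the lowest medians (-1.22 and -0.87). Those of the folding list (-0.31 in both comparisons) and the export list (-0.23 and -0.07) also lie left of 0. Few genes are filled between LATS1/2-Sox9-KO and LATS1/2-KO.

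Between LATS1/2-Sox9-KO and LATS1/2-KO, 0 of the 60 pathway genes rose and 5 fell by edgeR's test, beside 1.55% and 2.16% of all tested genes. The 5 were P3h3 (-1.18), Fkbp10 (-1.44), Adamts3 (-1.28), Pcolce (-1.38) and Fbln5 (-1.41), with adjusted p from 0.0141 to 0.0451. In the upward direction 1 of the 60, Sec31a, had an unadjusted p under 0.05. Its edgeR adjusted p was 0.0394, but its log2 fold change of 0.38 stayed under the 2-fold threshold. DESeq2 called 0 upward. The number called depended on single libraries. It was 3 without control replicate 1, without control replicate 2 or without LATS1/2-Sox9-KO replicate 3, 2 without LATS1/2-KO replicate 3, 1 without LATS1/2-Sox9-KO replicate 1 and 0 without LATS1/2-Sox9-KO replicate 2. Without LATS1/2-KO replicate 1 it was again 5, made of 1 higher (Fn1, named after its value was seen) and 4 lower.

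The substrates of the enzymes were mostly higher against control. Of the 11 tested genes of fibrillar collagens and elastin, 9 rose and 1 fell in LATS1/2-KO, and 8 rose and 1 fell in LATS1/2-Sox9-KO, with medians of 2.31 and 2.37. Eln, the elastin that Lox crosslinks, had 96.3, 99.8 and 93.3 normalised counts in control, 758, 2179 and 1572 in LATS1/2-KO, and 415, 409 and 484 in LATS1/2-Sox9-KO. It was lower in LATS1/2-Sox9-KO than in LATS1/2-KO (-1.79, standard error 0.32, edgeR adjusted p = 0.0141), as were Col27a1 (-1.59) and Col11a1 (-1.47), in the comparison in which Lox was higher. Col1a1 had 266, 291 and 377 normalised counts in control, 2413, 443 and 643 in LATS1/2-KO, and 1236, 1354 and 2252 in LATS1/2-Sox9-KO. LATS1/2-KO replicate 1 was the highest library of its group for Col1a1, as it was for Loxl2. Of the 9 basement membrane collagens 6 rose and 0 fell in LATS1/2-KO by edgeR's test (1 lower at an unadjusted p under 0.05 and 0 by DESeq2), and 5 rose and 2 fell in LATS1/2-Sox9-KO. The 1 lower in LATS1/2-KO was Col4a6, at -0.90 (edgeR adjusted p = 6.93e-05), which missed only the 2-fold threshold. Col4a2, a chain of type IV collagen, went from 251 ± 107 in control to 3755 ± 1001 in LATS1/2-KO and 1588 ± 849 in LATS1/2-Sox9-KO.

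Plod2, P4ha1, P4ha2 and Lox are known targets of hypoxia-inducible factors, and all hydroxylases here use 2-oxoglutarate, so both groups of genes were read. Of 18 hypoxia-induced genes and their regulators, 4 rose and 8 fell in LATS1/2-KO, and 4 rose and 7 fell in LATS1/2-Sox9-KO. The fallen genes included the hypoxia-inducible factors Hif1a (-2.09 and -2.16) and Epas1 (-2.39 and -3.38), which are regulators. Pgk1 (1.38 and 1.51) and Car9 (1.71 and 1.89) were among those that rose. Adm, a peptide hormone, rose by 2.84 in LATS1/2-KO, whereas the hexokinase Hk2 and the growth factor Vegfa fell, with log2 fold changes of -3.18 and -2.63 (edgeR adjusted p = 0.000174, 3.43e-05 and 4.37e-05). Of 17 other hydroxylases that use 2-oxoglutarate, 0 rose by edgeR's test and 8 fell in each comparison with control. Upward, 2 had an unadjusted p under 0.05 in LATS1/2-KO and 1 in LATS1/2-Sox9-KO, and DESeq2 called 0 in both. These were Jmjd6 in both (0.57 and 0.56, edgeR adjusted p = 0.00117 and 0.0011) and Egln1 in LATS1/2-KO (0.44, edgeR adjusted p = 0.0254). They passed the adjusted p threshold and missed only the 2-fold one. Phyh, which hydroxylates branched fatty acids, went from 32977 ± 6362 normalised counts in control to 2830 ± 323 and 879 ± 34.4, and Kdm6b, a histone demethylase, from 27877 ± 5284 to 3085 ± 917 and 3031 ± 522. The hypoxia list and the hydroxylase list share Egln1 and Egln3.

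Markers of cells that make collagen in the gland were set beside these results. In bulk libraries, fewer cells of a type and less RNA per cell cannot be told apart. Of 12 fibroblast markers, Tcf21 was at 0 in all 9 libraries and Gsn, also expressed by epithelium, was the most abundant. The sum of the others was 2148, 3951 and 8672 normalised counts in control, 2356, 806 and 1677 in LATS1/2-KO, and 266, 404 and 889 in LATS1/2-Sox9-KO. LATS1/2-KO replicate 1 overlapped the control range, and the other deleted libraries were below it. Dcn made most of the sum in control, at 1626, 3291 and 8162. Pdgfra, a defining fibroblast receptor, had 299 to 418 normalised counts in control, 192 to 368 in LATS1/2-KO and 35.3 to 162 in LATS1/2-Sox9-KO. Other markers went the opposite way, with Mfap5 at 0 to 1.24 in control, at least 39.2 in LATS1/2-KO and 27.8 to 94.7 in LATS1/2-Sox9-KO, and Lum at 3.48 to 22.4, 24.6 to 132 and 16.7 to 108. Of the 11 markers tested, 2 rose and 1 fell in LATS1/2-KO, and 1 rose and 2 fell in LATS1/2-Sox9-KO. Control replicate 3, with the highest Dcn, was also the control library with the highest P4ha2 and the lowest Serpinh1 and Plod2. LATS1/2-KO replicate 1, with the highest fibroblast sum without Gsn in its group, had that group's highest Plod1, Plod2, Plod3, P4ha1, Serpinh1 and Loxl2. The same library had that group's lowest Colgalt1, Colgalt2 and Lox. The part of fibroblasts in the spread within either group was not tested.

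Of 6 adipocyte markers, led by Fabp4, the sum was 273, 184 and 289 in control, 484, 6590 and 3419 in LATS1/2-KO, and 87.3, 2068 and 1437 in LATS1/2-Sox9-KO. Without Fabp4 it was 3.48, 12.5 and 8.71 in control, 7.02, 3914 and 2211 in LATS1/2-KO, and 33.4, 1073 and 518 in LATS1/2-Sox9-KO, most of it the adipsin gene Cfd in the 4 highest libraries. By edgeR's test 5 of the 6 rose in LATS1/2-KO and 4 in LATS1/2-Sox9-KO. Replicate 1 of each deleted group, low in these markers, had the highest Plod1, Plod3 and P4ha1 of its group, and LATS1/2-KO replicate 2, with the highest sum, had the highest Colgalt2. The part of adipocyte RNA in these values was not tested. The 8 basal markers summed to 4121, 5326 and 4769 in control, 262840, 157380 and 152230 in LATS1/2-KO, and 121900, 248320 and 356260 in LATS1/2-Sox9-KO, and in the deleted libraries almost all of it was Krt14, which had 501 to 909 in control. Without Krt14 the sums were 3212 to 4825, 9876 to 17127 and 4812 to 8345, with smooth muscle actin Acta2 the larger part in the deleted libraries, at 662 to 992 in control, 8402 to 15186 in LATS1/2-KO and 3904 to 5431 in LATS1/2-Sox9-KO. Trp63, which defines basal cells, was lower in every deleted library than in any control. Of the 8 basal markers 3 rose and 2 fell in LATS1/2-KO, and 3 rose and 3 fell in LATS1/2-Sox9-KO. The 8 endothelial markers summed to 5260 to 6328 in control and 362 to 1087 in the deleted libraries, a difference that lies in Vwf, since without it the sums were 650 to 774 in control, 736 to 823 in LATS1/2-KO and 300 to 849 in LATS1/2-Sox9-KO. Of these 8 markers 1 rose and 2 fell in LATS1/2-KO, and 1 rose and 3 fell in LATS1/2-Sox9-KO. The 6 pericyte markers, almost all of them Notch3, summed to 16834 to 21837 in control and 1685 to 4176 in the deleted libraries, and without Notch3 to 116 to 219 in control, 39.2 to 131 in LATS1/2-KO and 19.5 to 73.8 in LATS1/2-Sox9-KO. Of the 4 pericyte markers tested, 1 rose and 2 fell in LATS1/2-KO, and 2 fell in LATS1/2-Sox9-KO. The 9 immune markers, led by Cd14, summed to between 8003 and 16202, with Cd3e at 0 throughout. Without Cd14 they summed to 772 to 1147 in control, 2100 to 4403 in LATS1/2-KO and 3565 to 4827 in LATS1/2-Sox9-KO, most of it Csf1r in the deleted libraries, which had 128 to 208 normalised counts in control, 1753 to 2804 in LATS1/2-KO and 2716 to 3875 in LATS1/2-Sox9-KO. Of the 8 immune markers tested, 1 rose in LATS1/2-KO, and 2 rose and 1 fell in LATS1/2-Sox9-KO. Ptprc, which defines immune cells, had 17.4 to 55.6, 10.9 to 166 and 29.9 to 107. The 10 luminal markers, led by Krt18, summed to between 919420 and 1534800. Without Krt18 they summed to 741150 to 866940 in control, 490710 to 559230 in LATS1/2-KO and 688380 to 745260 in LATS1/2-Sox9-KO. Of these 10 markers 4 fell in LATS1/2-KO, and 2 rose and 6 fell in LATS1/2-Sox9-KO. The prolactin receptor Prlr had 152430 to 201230 normalised counts in control and 1774 to 11400 in the deleted libraries, and the progesterone receptor Pgr had 17143 to 30018 and 15.9 to 658. The sort for live EYFP+ cells labelled through K8CreERT2 is a gate meant to keep luminal cells and leave the other types out. Whether cells of any of these types contributed to the 10 genes was not tested.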

How the data were processed

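The authors mapped reads with STAR 2.6.0c (mm10) and summarised proper pairs with a unique position over Ensembl genes with featureCounts (Subread 1.6.2), mitochondrial genes excepted. The methods add that pairs were on the same strand, without saying whether libraries were stranded. They deposited whole-number counts per gene and library, neither normalised nor pooled. Total counts of 44167762 to 61967651 per library make counting error small except for genes with few reads in a group, such as Lox, Loxl2, Colgalt2, Slc23a1, Tll2, Adamts14 and some cell type markers. Elsewhere precision is set by the 3 libraries in each group. Ensembl identifiers were matched to symbols and exon lengths with GENCODE M21 on GRCm38.

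Genes were filtered with filterByExpr, normalised by TMM and fitted with 1 mean per group over all 9 libraries in edgeR 4.0.16 (R 4.3.3). The Benjamini-Hochberg adjustment ran over 19357 genes, and calls required both more than a 2-fold change in either direction and an adjusted p no higher than 0.05. The code was checked on simulated counts. Levels of different genes were compared per kb of merged exons.

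The 10 genes and the gene lists were chosen with earlier results of these data known. Besides the 10 genes, the targeted genes and a fixed set of partners, up to 3 genes per list and comparison were taken, with the largest fold change among called genes without overlap between libraries and with at least 100 mean normalised counts in the higher group. Bmp1, Atp7a, Col1a1, Pcolce2, Efemp2, Ltbp4, Tll2 and the cell type markers singled out were named after their values were seen. So were Col4a6, Sec31a, Jmjd6, Egln1, Hif1a, Pgk1 and Car9. Promoter windows were searched on both strands with 5 motifs. There were 18 alternatives, of which 9 left out 1 library each. The other 9 were DESeq2 1.42.0, RLE or upper-quartile factors, TMM without the 100 most counted genes, no filter, at least 10 counts in every library, the 2 groups alone, a replicate block, and glmTreat against a 2-fold change. Within every group, each pair of libraries differed by more than sampling noise.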

Additional observations from a re-analysis of the deposited data

How the results depend on the processing

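None of the fold changes called for the 10 genes changed sign in any alternative in which it was tested. Of those not called, Colgalt2 in LATS1/2-KO against control went from 0.90 to -0.20 without LATS1/2-KO replicate 2, and between the deleted groups Plod3 went from 0.21 to as low as -0.12 with 1 library left out and P4ha2 from -0.01 to between -0.07 and 0.06. In LATS1/2-KO against control, glmTreat, which tests against a 2-fold change, called 4005 genes instead of 6705 and 5 of the 10 instead of 7, as Plod3 and P4ha2 lost their calls. A minimum of 10 counts in every library left 5 there too, since Lox and Loxl2 leave the test. By glmTreat, LATS1/2-Sox9-KO against control had 4708 called genes instead of 7248, with 5 of the 10 instead of 8, as P4ha1, P4ha2 and Serpinh1 lost their calls. A minimum of 10 counts in every library also left 5, since Lox, Loxl2 and Colgalt2 leave the test. Between the deleted groups the number of called genes was 719, and it was 1259 by DESeq2, 32 by glmTreat and from 201 to 1079 with 1 library left out. Of the 10 genes, Lox and Colgalt2 were called there, and 0 by glmTreat. A minimum of 10 counts in every library also left 0, because both leave the test. Of the 60 pathway genes, 5 were called there, 0 by glmTreat and from 0 to 6 with 1 library left out. Without control replicate 3, which holds the single control read of Loxl2, its fitted log2 fold changes became 10.77 and 9.01.

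With the replicate number as a block, 3 of these 60 pathway genes were called between the deleted groups, and 7, 8 and 2 of the 10 genes were called in the 3 comparisons, as without it. Deviations of libraries with the same number correlated from -0.07 to 0.17 over 9 pairs. Between the deleted groups these correlations were 0.10, 0.17 and -0.03, and those of libraries with different numbers ran from -0.16 to 0.05. The labels give the number without saying what it stands for. Depth limits Lox and Loxl2 in control, with 11 and 1 reads, and Colgalt2 in LATS1/2-Sox9-KO, with 22 reads.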
